A study of Homo sapiens with 4 samples.

Results

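The matrix metalloproteinases were compared between MDA-MB-231, a human breast cancer cell line of triple-negative type, and LM2-4175, which has the same origin and metastasizes strongly to the lung. The members were the 10 rows of the deposited gene table whose symbol was MMP1, MMP2, MMP3, MMP7, MMP9, MMP10, MMP13, MMP14, MMP15 or MMP24, out of 57815 genes, and each symbol had 1 row. Both cell lines were grown untreated in DMEM with fetal bovine serum, and total RNA of each was sequenced in 2 libraries, which nothing describes as separate cultures. The authors combined the libraries of a cell line in 1 FPKM (a fragment count divided by transcript length and by the number of mapped fragments) with a lower and an upper bound. For that reason no value per library, no SD and no test between replicates could be given, and the differences below compare pooled libraries of 1 cell line each. The sequencing depth of each library is given in the paper's supplement and not in the table. Whether the spread between libraries entered the bounds is not given in the sources used here.

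Matrix metalloproteinases are zinc-dependent endopeptidases that cleave collagens, other matrix proteins and many proteins of the cell surface. They are made as inactive proenzymes, are activated when the propeptide is removed, and are held in check by the tissue inhibitors of metalloproteinases. The collagenases open the triple helix of fibrillar collagen, the gelatinases degrade denatured collagen and basement membrane collagen, and the membrane-type enzymes act at the cell surface. In tumours they have long been studied for their part in invasion.

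The family is partly a family by position. In the GENCODE annotation of GRCh37 (hg19), the build the authors aligned to, MMP7, MMP10, MMP1, MMP3 and MMP13 lie close together on chromosome 11, from 102391239 to 102826461. This stretch of 435.2 kb holds 9 MMP genes, all on the minus strand, of which 5 are members. MMP2 and MMP15 are on chromosome 16, MMP9 and MMP24 on chromosome 20, and MMP14 on chromosome 14. The RefSeq promoter table held 5 of the 10 members, namely MMP7, MMP10, MMP14, MMP15 and MMP24. The 250 bases before the start of 4 of these are shown 5′ to 3′, because they set the clustered genes at or near 0 FPKM (MMP7 and MMP10) beside membrane-type genes that were expressed in both cell lines (MMP14 and MMP15). Capitals mark TGAGTCA (the AP-1 site), AGGAAG (the PEA3 site of ETS factors) and TATAAA (the TATA box), searched on both strands, so that AGGAAG on the other strand reads CTTCCT. No match overlaps another. The positions are those of GRCh38.p14, at chr11:102530748-102530997 (minus strand) for MMP7, chr11:102780629-102780878 (minus strand) for MMP10, chr14:22836335-22836584 (plus strand) for MMP14 and chr16:58025504-58025753 (plus strand) for MMP15.
MMP7: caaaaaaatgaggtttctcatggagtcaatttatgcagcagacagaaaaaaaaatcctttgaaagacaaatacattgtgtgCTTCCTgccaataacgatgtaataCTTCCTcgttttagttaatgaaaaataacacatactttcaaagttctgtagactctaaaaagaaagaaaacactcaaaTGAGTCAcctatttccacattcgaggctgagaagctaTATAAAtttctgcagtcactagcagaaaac
MMP10: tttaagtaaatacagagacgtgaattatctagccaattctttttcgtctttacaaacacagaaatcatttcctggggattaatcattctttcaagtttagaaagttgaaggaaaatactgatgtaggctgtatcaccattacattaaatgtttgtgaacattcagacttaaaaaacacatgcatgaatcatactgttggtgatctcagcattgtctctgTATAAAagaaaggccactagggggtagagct
MMP14: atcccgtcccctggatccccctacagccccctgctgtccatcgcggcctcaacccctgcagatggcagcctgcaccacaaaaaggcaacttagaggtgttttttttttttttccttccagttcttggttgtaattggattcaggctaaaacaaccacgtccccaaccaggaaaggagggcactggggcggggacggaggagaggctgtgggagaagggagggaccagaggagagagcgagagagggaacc
MMP15: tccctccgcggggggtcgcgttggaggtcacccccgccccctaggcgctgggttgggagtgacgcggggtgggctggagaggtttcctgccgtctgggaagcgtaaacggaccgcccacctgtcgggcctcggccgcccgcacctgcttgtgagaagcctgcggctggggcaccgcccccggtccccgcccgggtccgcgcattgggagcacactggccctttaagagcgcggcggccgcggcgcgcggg

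The MMP7 window held an AP-1 site that starts 67 bases before the start site, PEA3 sites that start 169 and 145 bases before it, and a TATA box 30 bases before it. The MMP10 window held a TATA box 31 bases before the start. None of the 3 motifs was found in the windows of MMP14, MMP15 and MMP24. Of 35116 windows of the same length, 4.2% held the AP-1 site, 28.7% the PEA3 site and 10.7% the TATA box. The windows also differed in base composition. MMP7 had 3 and MMP10 had 2 CpG dinucleotides, MMP14 had 7, MMP24 had 25 and MMP15 had 31, against a median of 11 over all windows.

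No statistical test could be run on the pooled values, and a gene is called tested here where it was held to the following rule. Its status had to be OK in both cell lines and its mean FPKM at least 0.5, which left 13911 genes. A call, higher or lower in LM2-4175, was made where the ratio of FPKM + 1 reached 1.5-fold and the bounds of one cell line lay apart from those of the other. The pseudocount of 1 understates the change of low genes, so the plain ratio is given beside it for each member except MMP10. MMP1, MMP2 and MMP9 were called higher, MMP3, MMP14, MMP15 and MMP24 were not called, and MMP7, MMP10 and MMP13 were below the filter. Thus 3 of the 7 tested members (of 10 in all) were called higher and 0 lower, where 4.67% of all tested genes were called higher and 4.61% lower. By the fold alone, 5 of the 7 tested members were higher and 1 was lower, beside 10.3% and 11.8% of all tested genes. MMP2, MMP3 and MMP9 reached the filter through LM2-4175 only, and MMP24 through MDA-MB-231 only. Given its FPKM in the other cell line, each could pass only by being at least 1.5-fold higher, in FPKM + 1, in that cell line. The filter thus fixed the direction and the fold criterion of these genes, and only the bounds could withhold a call. The counts by the fold alone add no result for them. These are levels in bulk RNA, in which fewer expressing cells and less RNA per cell cannot be told apart.

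**Figure D1:**
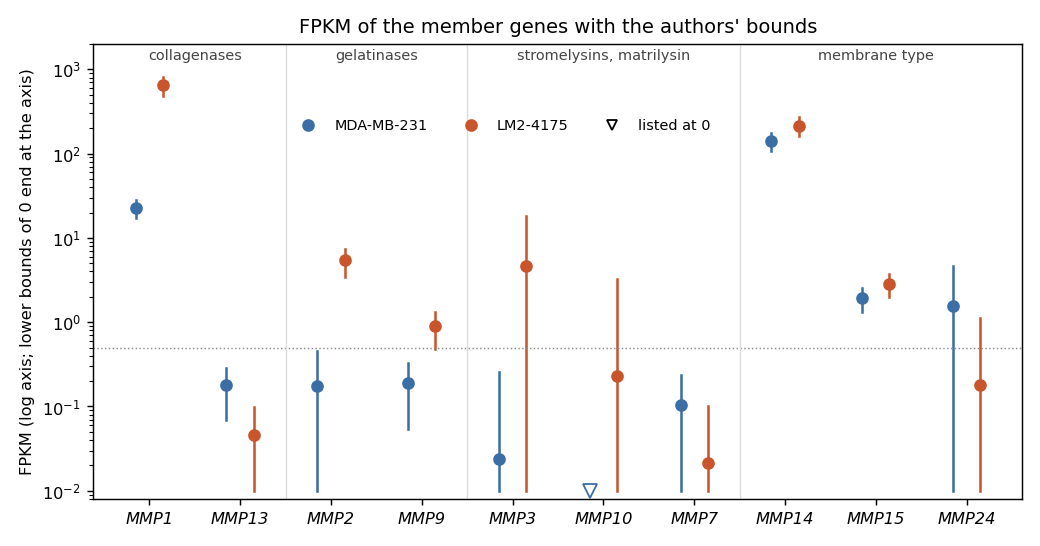
FPKM of the 10 member genes on a log axis in MDA-MB-231 (blue) and LM2-4175 (orange), grouped by type of enzyme. Points are the authors' pooled value of 2 libraries and lines run from their lower to their upper bound, the dotted line is at 0.5 FPKM, and the triangle marks a value listed at 0. The lines of the cell lines are apart for MMP1, MMP2 and MMP9, and overlap for the others.

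MMP1, the interstitial collagenase, changed most among the members in FPKM. In MDA-MB-231 it stood at 22.7 FPKM, with bounds of 17.1 and 28.2, and in LM2-4175 at 643.3 FPKM, with bounds of 484 and 802.7. The plain ratio was 28.4, the ends of the bounds allow 17.2 to 46.9, and the log2 ratio of FPKM + 1 was 4.77. This was the 15th highest log2 ratio among the 13911 tested genes. Among the 57807 genes of status OK, the FPKM of MMP1 moved from rank 4647 in MDA-MB-231 to rank 130 in LM2-4175. MMP1 (ENSG00000196611) lies on chromosome 11 from 102660132 to 102668891 on the minus strand of GRCh37, and exons of the pseudogene WTAPP1 on the opposite strand overlap 8.14% of its exon bases. WTAPP1 itself had 0.00501 FPKM in MDA-MB-231 and 0.257 FPKM in LM2-4175.

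MMP13, the other collagenase among the members, was near 0 in both cell lines. The gene (ENSG00000137745, chromosome 11, 102813724 to 102826461, minus strand) stood in MDA-MB-231 at 0.179 FPKM (bounds 0.0695 and 0.289), and in LM2-4175 at 0.0456 FPKM (bounds 0 and 0.0993), a plain ratio of 0.255 with overlapping bounds. The mean of 0.112 FPKM put it below the filter.

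The gelatinases were low in MDA-MB-231 and were both called higher in LM2-4175. MMP2 (ENSG00000087245, chromosome 16, 55423612 to 55540603, plus strand) stood in MDA-MB-231 at 0.177 FPKM (bounds 0 and 0.457), and in LM2-4175 at 5.4 FPKM (bounds 3.44 and 7.37). The plain ratio of 30.6 was close to that of MMP1, but it rests on a value whose lower bound is 0, and the bounds allow ratios from 7.51 upward. The log2 ratio was 2.44 with the pseudocount of 1 and 4.31 with a pseudocount of 0.1. MMP9 (ENSG00000100985, chromosome 20, 44637547 to 44645200, plus strand) stood in MDA-MB-231 at 0.189 FPKM (bounds 0.0543 and 0.324), and in LM2-4175 at 0.907 FPKM (bounds 0.477 and 1.34). Its plain ratio was 4.79, with 1.47 to 24.6 allowed by the bounds, and its log2 ratio was 0.68. MMP9 was not called with a fold threshold of 2 and was not tested with a mean of at least 1 FPKM, since its mean was 0.548 FPKM. An antisense gene, SLC12A5-AS1, overlaps 18.4% of its exon bases and had 0.0921 and 0.0598 FPKM.

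The stromelysins MMP3 and MMP10 and the matrilysin MMP7 degrade proteoglycans, fibronectin and laminin, and none of them was called, with MMP7 and MMP10 below the filter and MMP3 above it. MMP3 (ENSG00000149968, chromosome 11, 102706532 to 102714340, minus strand) stood in MDA-MB-231 at 0.0241 FPKM (bounds 0 and 0.255), and in LM2-4175 at 4.6 FPKM (bounds 0 and 17.9). The upper bound of MMP3 in LM2-4175 lay above the FPKM by 290.4% of its value, against 24.8% for MMP1, so a log2 ratio of 2.45 came with overlapping bounds. Its plain ratio of 190.9 was the largest among the members, but the bounds allow ratios from 0 upward. MMP10 (ENSG00000166670, chromosome 11, 102641233 to 102651359, minus strand) had a listed value of 0 in MDA-MB-231 and of 0.23 FPKM (bounds 0 and 3.25) in LM2-4175. No fold is given against a listed 0, which can be a failed estimate. MMP7 (ENSG00000137673, chromosome 11, 102391239 to 102401481, minus strand) stood in MDA-MB-231 at 0.105 FPKM (bounds 0 and 0.238), and in LM2-4175 at 0.0216 FPKM (bounds 0 and 0.102), a plain ratio of 0.205 with overlapping bounds. Each of these genes had a lower bound of 0 in both cell lines.

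The authors' table assigns MMP1, MMP3 and MMP10 to 1 shared locus of 7 genes, 4 of them above 0 in either cell line. MMP3 and MMP10 have near-identical stretches, and 59 of the 50-base words in their annotated transcripts occur in both, which is 3.18% of those of MMP3 and 3.36% of those of MMP10. None of the 50-base words of MMP1, MMP2, MMP7, MMP9, MMP13, MMP14, MMP15 or MMP24 occurred in another MMP gene searched. Whether reads were divided between MMP3 and MMP10, or between MMP1 and its neighbours in the locus, was not tested.

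None of the membrane-type enzymes MMP14, MMP15 and MMP24 was called. MMP14, which cleaves collagen at the cell surface and activates the MMP2 proenzyme, was the highest member in MDA-MB-231. It stood in MDA-MB-231 at 141 FPKM (bounds 106.8 and 175.2), and in LM2-4175 at 215.3 FPKM (bounds 161.5 and 269.1). The plain ratio was 1.53 and the log2 ratio 0.61, just past the fold threshold, but the bounds overlap and allow ratios of 0.922 to 2.52, so MMP14 was not called. After quantile normalization its log2 ratio was 0.74 and the bounds were apart. MMP14 (ENSG00000157227) lies on chromosome 14 from 23305769 to 23318250 on the plus strand, and no exon of another gene overlaps it.

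MMP15, which also activates the MMP2 proenzyme (ENSG00000102996, chromosome 16, 58059658 to 58080805, plus strand), stood in MDA-MB-231 at 1.94 FPKM (bounds 1.33 and 2.54), and in LM2-4175 at 2.83 FPKM (bounds 1.96 and 3.7). Its plain ratio was 1.46, its log2 ratio of 0.38 was under the threshold, and the bounds allow ratios of 0.772 to 2.77. MMP24 (ENSG00000125966, chromosome 20, 33814493 to 33864801, plus strand), which is best known from the nervous system, was the 1 tested member with a lower FPKM in LM2-4175, at 1.57 FPKM (bounds 0 and 4.6) in MDA-MB-231 against 0.18 FPKM (bounds 0 and 1.11). The plain ratio of MMP24 was 0.115 and its log2 ratio -1.12, but both lower bounds were 0 and it was not called. Exons of MMP24OS on the opposite strand, named MMP24-AS1 in the table, overlap 18.4% of the MMP24 exon bases. That gene was far higher than MMP24, with 105.5 FPKM in MDA-MB-231 and 64.3 FPKM in LM2-4175, and the use of strand in counting is not stated. Its part in the values of MMP24 was not tested.

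As FPKM is scaled by transcript length, the members can be ranked within a cell line. In MDA-MB-231 the order began with MMP14, MMP1, MMP15 and MMP24, and MMP14 was 6.22 times as high as MMP1 with bounds apart. MMP1 was also apart from MMP15, while from MMP15 downward the bounds of all neighbours in the order overlapped. In LM2-4175 the order began with MMP1, MMP14, MMP2 and MMP3, and MMP1 was 2.99 times as high as MMP14, again with bounds apart. MMP14 was also apart from MMP2. The bounds of MMP2 overlapped those of MMP3, those of MMP3 overlapped those of MMP15, and MMP15 was apart from MMP9. Below MMP9 all neighbours overlapped.

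The members summed to 167.8 FPKM in MDA-MB-231, of which MMP14 made up 84% and MMP1 13.5%. In LM2-4175 they summed to 872.9 FPKM, of which MMP1 made up 73.7% and MMP14 24.7%. The other 8 members together held 2.49% of that sum in the former cell line and 1.63% in the latter.

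Of the 9 MMP genes of the cluster on chromosome 11, MMP1 was called higher and MMP3 was tested without a call. The remaining 7, namely MMP7, MMP8, MMP10, MMP12, MMP13, MMP20 and MMP27, had a mean FPKM below 0.5. Among 22 other protein-coding genes within 3 Mb of the clustered members, 13 were tested, and 10 of these were above and 3 below a log2 ratio of 0. Their median log2 ratio was 0.48, against -0.04 over all tested genes, and 5 were called higher and 0 lower. Of all tested genes, 4.67% were called higher and 4.61% lower. The nearest tested neighbours on either side were TMEM123, with 407.5 FPKM in MDA-MB-231 and 297.2 FPKM in LM2-4175, and DCUN1D5, with 52.4 and 44.5 FPKM. Both had log2 ratios below 0 and were not called. BIRC3 (log2 ratio 1.23), PDGFD (1.06), CASP4 (1.56), CASP1 (2.72) and CARD16 (2.02), named after their values were seen, were the neighbours called higher. BIRC3 lay 181.1 kb from the cluster and PDGFD 951.5 kb, while CASP4, CASP1 and CARD16 lay 1987 to 2086 kb away. PDGFD, with 0.254 and 1.62 FPKM, reached the filter through LM2-4175 only.

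**Figure D2:**
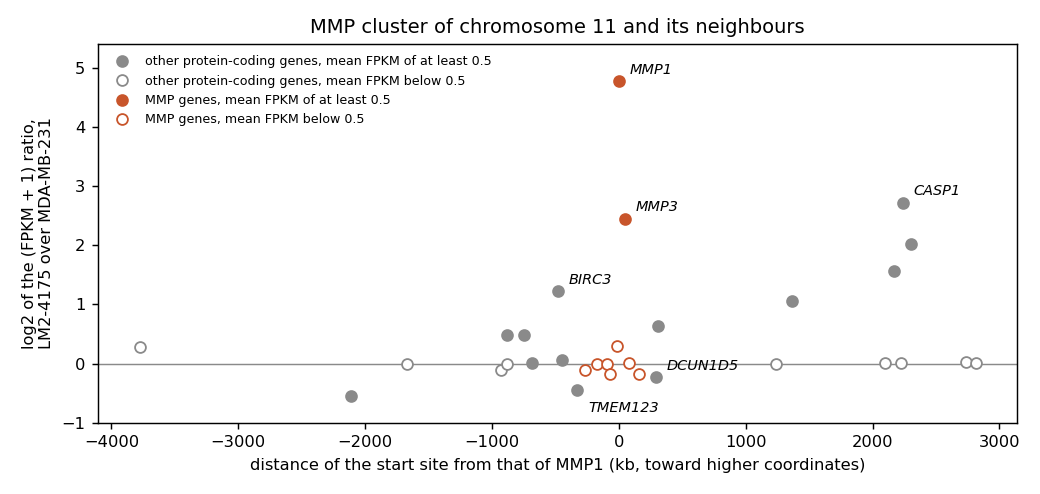
Log2 ratio of FPKM + 1 (LM2-4175 over MDA-MB-231) of the protein-coding genes within 3 Mb of the clustered members, against the distance of each start site from that of MMP1 in kb. MMP genes are orange and other genes grey, open circles are genes with a mean below 0.5 FPKM, and MMP1 at 4.77 stands above TMEM123 and DCUN1D5, which lie below 0 on either side.

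Of the 13 other MMP genes, 4 were tested and 0 were called, with a median log2 ratio of 0.32. MMP16, a membrane-type enzyme, came closest, at 0.394 FPKM in MDA-MB-231 (bounds 0.0833 and 0.7048) against 1.41 FPKM in LM2-4175 (bounds 0.7044 and 2.11), so that the bounds just overlap. MMP16 reached the filter through LM2-4175 only, which fixed its direction. MMP19 had 2.92 and 5.58 FPKM, and TMEM198B on the opposite strand overlaps 17.6% of its exons. MMP11 had 2.98 and 2.58 FPKM, and MMP17 had 0.789 and 0.653 FPKM. MMP28 had 0.676 FPKM in MDA-MB-231 (bounds 0.134 and 1.22) and was listed at 0, which can be a failed estimate, in LM2-4175. It was below the filter.

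TIMP1, an inhibitor of MMP1 and of most other secreted MMPs, was called lower, from 394.9 FPKM (286.8 to 502.9) to 199.7 FPKM (143.9 to 255.4), and it was the 1 gene called of 6 inhibitors tested, whose median log2 ratio was -0.09. TIMP2, which also takes part in the activation of MMP2 by MMP14, had 209.8 FPKM in MDA-MB-231 and 202.6 FPKM in LM2-4175. TIMP3 was past the fold threshold with a log2 ratio of -0.65, but its bounds just overlap, so it was not called. For this gene MDA-MB-231 had 83 FPKM with a lower bound of 64.2, and LM2-4175 had 52.5 FPKM with an upper bound of 64.4. The highest log2 ratio among the 6 inhibitors was 0.26. In MDA-MB-231 the FPKM of TIMP1 was 17.4 times that of MMP1, and in LM2-4175 the FPKM of MMP1 was 3.22 times that of TIMP1. MMP14 stood at 0.672 of the FPKM of TIMP2 in MDA-MB-231 and at 1.06 in LM2-4175.

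Among 13 genes that activate the proenzymes or hold them at the cell surface, 10 were tested, 2 were called higher and 0 lower, with a median log2 ratio of 0.12. PLAUR, the urokinase receptor, rose from 56.4 FPKM (42.9 to 69.9) to 101 FPKM (77 to 125.1). LCN2, which binds MMP9, rose from 1.03 FPKM (0.403 to 1.66) to 5.03 FPKM (3.14 to 6.92). PLAU, the urokinase gene, had 168.9 FPKM (126.1 to 211.6) and 276.5 FPKM (210.3 to 342.6), with bounds that overlap. BSG, an inducer of MMP expression in neighbouring cells, had 521.1 and 523.7 FPKM, and CD44, a docking protein of MMP9 and MMP14, had 469.7 and 355 FPKM.

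Of 14 transcription factors that bind MMP promoters, all were tested, and 1 was called higher and 1 lower, with a median of -0.02. JUN was called higher (26.8 and 42.6 FPKM), and FOS was called lower, from 17.6 FPKM (12.6 to 22.7) to 2.99 FPKM (1.84 to 4.14). The highest AP-1 gene in both cell lines was FOSL1, with 322.8 FPKM in MDA-MB-231 and 378.3 FPKM in LM2-4175, and it was not called. ETS1 had 77.9 FPKM (58.7 to 97.1) and 118.1 FPKM (89.1 to 147.1), also without a call.

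Matrix proteins that these enzymes cleave were called in both directions, with 3 higher and 4 lower of 9 tested. Their log2 ratios ran from -1.76 to 3.99 in separate groups on either side of 0, so that the median of -0.90 depends on which genes are in the list. SPARC, TNC and COL1A1 were called higher, with log2 ratios of 3.99, 1.96 and 2.94. COL1A2, COL5A1, FN1 and COL4A2 were called lower, with log2 ratios of -1.76, -1.74, -1.41 and -0.95. The chains of type I collagen, a substrate of MMP1, were thus called in opposite directions. COL1A2, with 2.76 FPKM in MDA-MB-231 and 0.113 FPKM in LM2-4175, reached the filter through MDA-MB-231 only. The filter thus fixed its direction and fold criterion, and only the bounds could withhold its call.

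**Figure D3:**
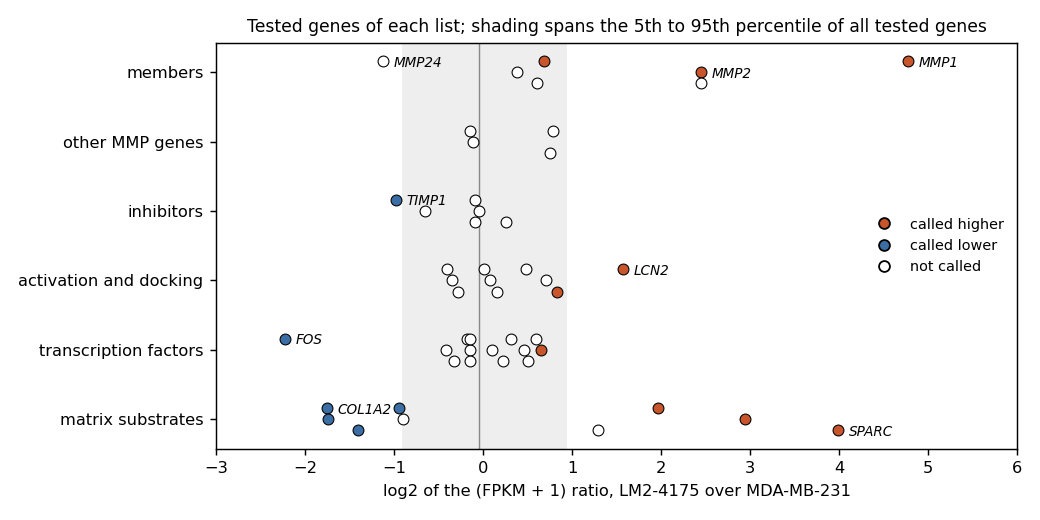
Log2 ratio of FPKM + 1 (LM2-4175 over MDA-MB-231) of the tested genes in each list, 1 point per gene, orange where called higher, blue where called lower and white where not called. The shading spans the 5th to 95th percentile of all 13911 tested genes (-0.91 to 0.93), with MMP1, MMP2 and MMP3 above it and MMP24 below it, MMP3 and MMP24 without a call, while the 4 other MMP genes tested lie within it. MMP2, MMP3 and MMP24 passed the filter through 1 cell line only, which fixed their direction and a fold of at least 1.5.

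Markers of the cell lines and of other cell types were read beside the members. VIM, CD44, AXL and CAV1, which mark mesenchymal breast cancer lines, had 151.1 to 1768 FPKM in both cell lines, and CAV1 was called lower, from 587.3 to 151.1 FPKM. The 5 luminal markers summed to 16.3 FPKM in MDA-MB-231 and 7.74 FPKM in LM2-4175, EPCAM was called lower, from 12.3 to 4.93 FPKM, and the hormone receptor genes ESR1 and PGR had at most 0.0331 FPKM. White blood cells, fibroblasts and endothelium also make MMPs. The 5 white blood cell markers summed to 4.17 FPKM in MDA-MB-231 and 2.57 FPKM in LM2-4175, with CD3E and MPO listed at 0 in both. The 3 fibroblast markers summed to 10.9 and 2.12 FPKM, and 2 of them were called lower. These were PDGFRB, with 9.44 and 1.91 FPKM, and LUM, with 1.34 and 0.178 FPKM. LUM reached the filter through MDA-MB-231 only, which fixed its direction and fold criterion. The 2 endothelial markers with a row, CDH5 and VWF, summed to 0.0465 and 0.147 FPKM. The part of other cell types in the values of MMP1, MMP2 and MMP9 was not tested.

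**Figure D4:**
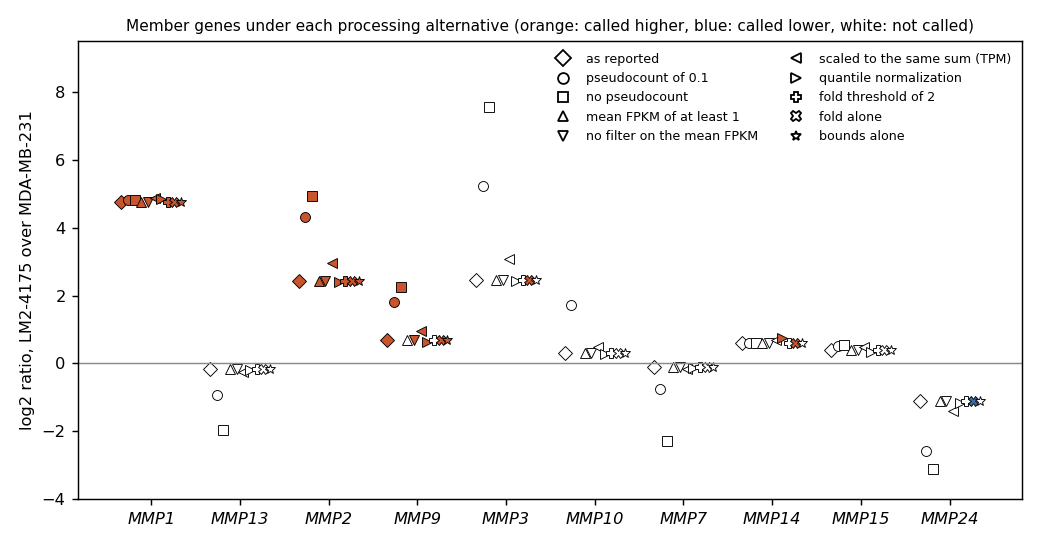
Log2 ratio of each member (LM2-4175 over MDA-MB-231) as reported and under 9 alternatives, 1 marker shape per alternative, orange where called higher, blue where called lower and white where not called. MMP1 and MMP2 were called higher under all of them. Only scaling to the same sum and quantile normalization could change a sign, and neither did for any member.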

How the data were processed

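RNA-Seq of 4 libraries was analysed, 2 each of MDA-MB-231 and LM2-4175, grouped by their titles. The authors prepared TruSeq libraries, mapped paired reads to hg19 with TopHat2, quantified GENCODE genes with Cufflinks and deposited 1 FPKM with bounds and a status per gene and cell line. The submitters' processing notes also name Cuffdiff. How the libraries were scaled and whether strand was used is not given in the sources used here.

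The log2 ratio of FPKM + 1 was computed in Python 3.11.15 with NumPy 2.4.6 and pandas 2.3.3, and plots were drawn with Matplotlib 3.10.9. The call, a fixed rule and not a statistical test, was applied to all 57815 rows with the filter and thresholds given above. The code was tested on simulated data, which does not check the deposited bounds. The deposited libraries are pooled, so the planned leave-one-out values could not be run. Positions and exon overlaps came from GENCODE 44 on GRCh37, with 55869 genes matched. Promoters came from RefSeq on GRCh38.p14. An exact 0 can be a failed estimate, since EEF1A1 is listed at 0 in MDA-MB-231.

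All members are named. Of each further list, the called genes and then those of the highest mean were named, at most 8. MMP28 was named after its values were seen. The members and lists were chosen with earlier results of these data known. The list of matrix proteins is counted without 1 gene, which is not reported here.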

Additional observations from a re-analysis of the deposited data

How the results depend on the processing

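MMP1 and MMP2 were called higher under all 9 alternatives, which were other pseudocounts, filters, scalings, fold thresholds and call rules. MMP9 lost its call with a mean of at least 1 FPKM and with a fold threshold of 2. MMP14 was called higher after quantile normalization (log2 ratio 0.74). With the fold alone, 5 members were higher and 1 lower, the added ones being MMP3, MMP14 and MMP24. Of all genes, 1434 and 1640 were called higher and lower by that rule. The filter had already set MMP2, MMP3, MMP9 and MMP24 past the fold threshold. A fold threshold of 2 left 403 genes lower. With other settings the counts of members called stayed within 1.5 times. No member changed sign with scaling to the same sum or quantile normalization, and the other alternatives could not change a sign. No paired analysis was possible because the table holds 1 pooled value per cell line, and for the same reason no replicate was left out. Low FPKM limits what can be said of MMP7, MMP10 and MMP13, of MMP9, whose mean was 0.548 FPKM, and of the ratio of MMP2, whose lower bound in MDA-MB-231 was 0. MMP3 and MMP24 are limited by wide bounds.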
